A study of Homo sapiens with 6 samples.

Results

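The NRF2 axis and the enzymes of glutathione production were examined in HCT116 colon cancer cells with and without knockdown of IGF2BP3. The set held 9 genes chosen by symbol, namely NFE2L2, KEAP1, BACH1, GCLC, GCLM, GSS, GSR, NQO1 and ABCC1. Each matched a row of the deposited table of 62710 genes, and all 9 were among the 16753 genes with enough counts to be tested. They were picked for function, with earlier results of these data known.

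HCT116 is an established human colon cancer cell line, and all 6 libraries came from it. The 3 sh-NC libraries were labelled negative control and came from cells infected with lentivirus carrying a scrambled sequence, and the 3 sh-IGF2BP3 libraries came from cells carrying an shRNA against IGF2BP3, an RNA-binding protein that reads modified mRNA. Both kinds of cells were selected with puromycin as stable lines. A single shRNA was used, so its effects on other transcripts cannot be told apart from those of lower IGF2BP3, and the labels do not say whether libraries of a group came from separate cultures.

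As background, NRF2, the protein made from NFE2L2, is the main activator of antioxidant genes. KEAP1 binds NRF2 and passes it to a ubiquitin ligase for degradation, and oxidants or electrophiles that modify KEAP1 let NRF2 accumulate and bind antioxidant response elements (AREs) with a small MAF partner, while BACH1 competes for the same elements and represses them. Among the targets are the subunits of glutamate-cysteine ligase, which limits glutathione synthesis. Cysteine for that step comes in large part from the cystine that SLC7A11 imports, and glutathione is what GPX4 consumes to hold back ferroptosis. NRF2 is controlled mostly through protein stability, so mRNA levels of NFE2L2 and KEAP1 do not measure NRF2 activity.

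None of the 9 genes was called different between sh-IGF2BP3 and sh-NC cells. A call needed an adjusted p under 0.05 and a fold change above 1.5 in edgeR's quasi-likelihood test with Benjamini-Hochberg (BH) adjustment over all 16753 genes, and 0.0% of all tested genes passed it. With DESeq2, again 0 of the 9 genes passed, against 4.29% of its 13087 tested genes called higher and 1.05% called lower. At an unadjusted p under 0.05, KEAP1 was higher in sh-IGF2BP3 libraries, 1 gene of 9 against 13.6% of all genes, and 0 of 9 were lower against 8.54%. Taking only whether the 3 libraries of each group overlapped, 0 of 9 genes lay wholly higher, against 13.2% of all genes, and BACH1 alone lay wholly lower, 1 of 9 against 11%. These shares were near the background. Since the RNA is from whole cultures, fewer cells of a kind and less RNA per cell cannot be told apart.

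**Figure D1:**
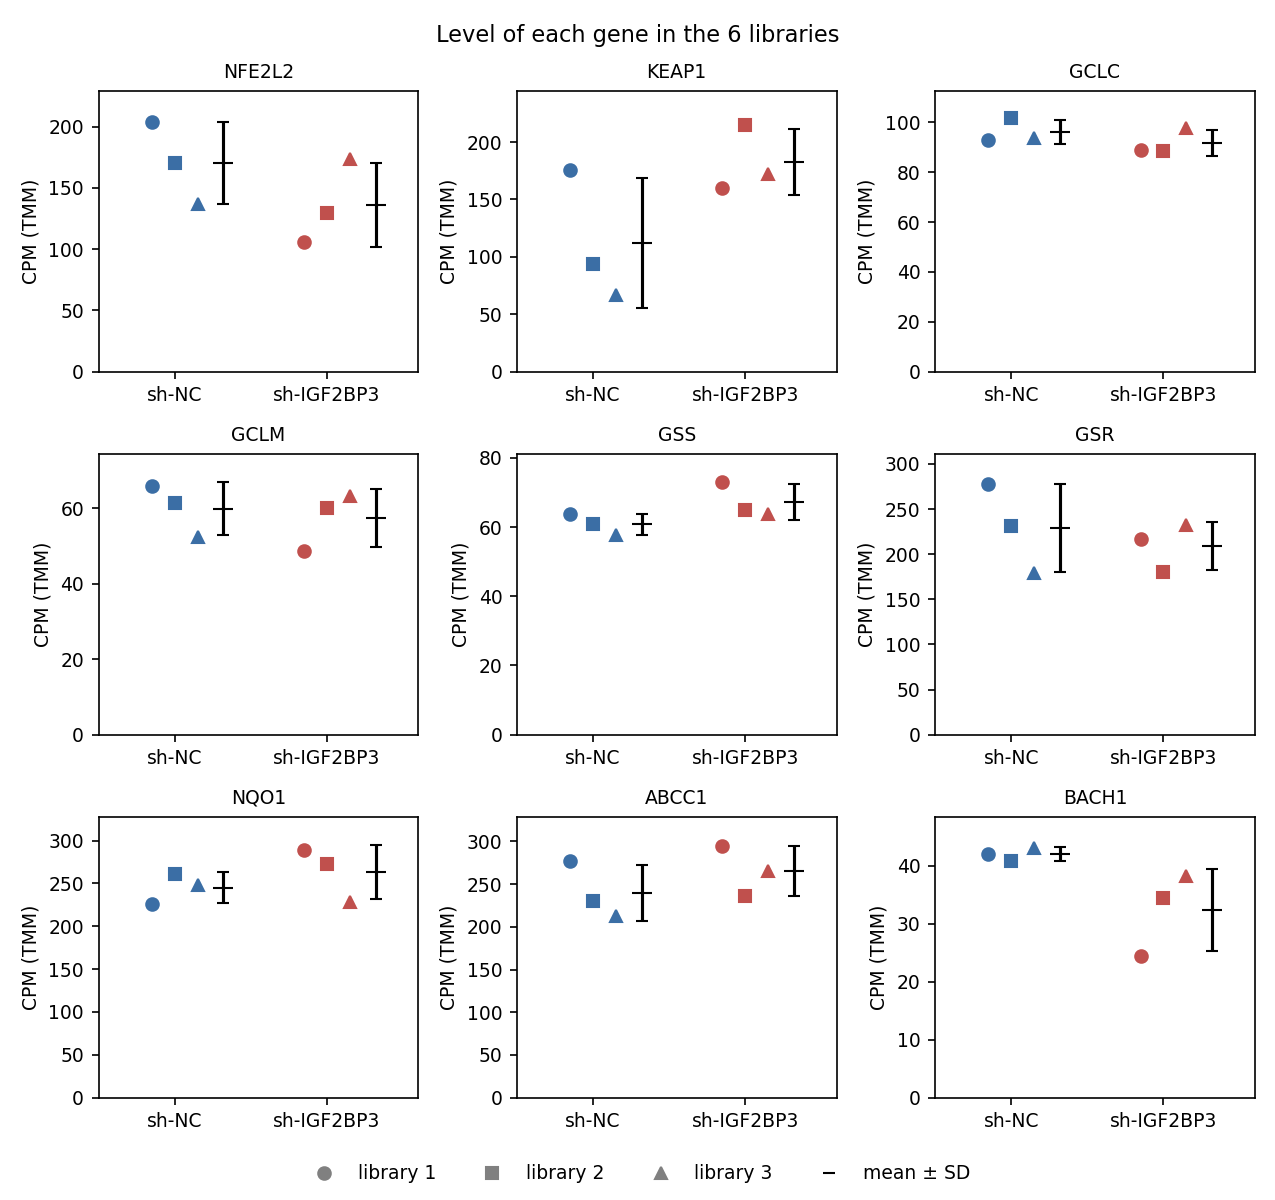
Level of each of the 9 genes in CPM (counts scaled to a common library total by TMM normalization, linear axis from 0) in the 3 sh-NC (blue) and 3 sh-IGF2BP3 (red) libraries, with marker shape for the library number and a bar for mean ± SD (n = 3). The groups overlapped for every gene but BACH1, whose sh-IGF2BP3 libraries reached at most 38.3 CPM against at least 40.9 CPM in sh-NC.

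The libraries held 16146718 to 23576469 counts on genes. IGF2BP3 itself averaged 81.6 ± 10.2 CPM in controls and 56.1 ± 3.98 CPM after knockdown (SD, n = 3 each), without overlap, a ratio of 0.688 and a log2 fold change of −0.54 (edgeR adjusted p = 0.126). The libraries also differed by a trend with the GC content of genes: the slope of log2 CPM per 10 percentage points of GC was −0.23 to −0.05 in sh-NC and −0.008 to 0.35 in sh-IGF2BP3 libraries, and fold changes had a Spearman correlation of 0.611 with GC content across 16236 genes, which are not independent replicates. Values with each library's trends in GC content and transcript length removed are therefore given as well. Every sh-IGF2BP3 slope lay above every sh-NC slope, so removing the trends may also remove part of a difference due to the knockdown. These cannot be told apart here. For IGF2BP3 the corrected levels overlapped, at 89.9, 72.8 and 60.6 CPM in controls and 73.7, 56.7 and 56.5 CPM after knockdown, with a log2 fold change of −0.26 (edgeR unadjusted p = 0.181). The paper reports the knockdown in HCT116 by qPCR and Western blot as well. The colon epithelial markers EPCAM, KRT8, KRT18, KRT19, CDH1 and CLDN4 had at least 1413 counts in every library, whereas CDH17 had at most 34 and VIL1 at most 3. All 5 leukocyte markers were at 13 counts or fewer and the 3 endothelial markers at 52 or fewer, while of 4 fibroblast markers COL1A1 had 496 to 1024 counts and COL1A2 had 0. Their part in the results was not tested.

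The knockdown sequence is shown because it defines the comparison. It was found in 4 of the 18 GENCODE 29 transcripts of IGF2BP3 and in 0 transcripts of the 9 genes, counting exact matches on the transcript strand alone. Partial matches and the other genes named below were not searched.
sh-IGF2BP3: GGCTCAGGGAAGAATTTAT

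The regulators come first. NFE2L2 (ENSG00000116044; chromosome 2, 177218667 to 177392756, minus strand, GRCh38) encodes NRF2. Libraries 1, 2 and 3 of the control group gave 203.4, 170.4 and 137.1 CPM, and those of the knockdown group 105.7, 129.2 and 173.4 CPM. Overlap came from sh-IGF2BP3 3, which lay above 2 of the sh-NC libraries. The means were 170.3 ± 33.1 and 136.1 ± 34.4 CPM (SD, n = 3 each), a difference about as large as the spread within either group. This gave a log2 fold change of −0.32 (standard error 0.217, 95% interval −0.78 to 0.14, edgeR adjusted p = 0.390), and −0.24 with the GC and length trends removed. Without sh-IGF2BP3 3, the library nearest to the controls, it was −0.56 (edgeR adjusted p = 0.180), and then NFE2L2 and BACH1 were lower at an unadjusted p under 0.05, 2 of 9 genes against 10.3% of all genes.

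The annotated span of NFE2L2 is crowded. It shares 5293 bases with HNRNPA3 on the opposite strand, a gene with 6114 to 9094 counts per library, and 121575 bases with a long noncoding RNA on its own strand that had 43 to 266 counts. Whether counting used the strand is not given in the sources used here, so reads of NFE2L2 and HNRNPA3 in the shared stretch cannot be told apart. The gene length that the authors used for FPKM was 14975 bases for NFE2L2, against 2853 bases for its principal transcript, which sets its FPKM low beside the other genes.

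KEAP1 (ENSG00000079999; chromosome 19, 10486125 to 10503558, minus strand) encodes the substrate adaptor that holds NRF2 for degradation. Control libraries 1, 2 and 3 gave 175.9, 93.7 and 66.8 CPM, and knockdown libraries 1, 2 and 3 gave 160.2, 214.7 and 172.3 CPM. The sh-IGF2BP3 libraries lay close together and above sh-NC 2 and 3, but sh-NC 1 fell among them. Means were 112.1 ± 56.9 CPM in sh-NC and 182.4 ± 28.6 CPM in sh-IGF2BP3 libraries (SD, n = 3 each), a ratio of 1.63. No other of the 9 genes varied as much among the controls, with a coefficient of variation of 50.7%.

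The log2 fold change of KEAP1 was 0.70 (standard error 0.278, 95% interval 0.11 to 1.29, edgeR unadjusted p = 0.0228 and adjusted p = 0.165). sh-NC 1 decided the call: without it the value was 1.19 (edgeR adjusted p = 0.00288), and KEAP1 passed both thresholds, as did 10% of all genes in the higher and 5.67% in the lower direction in that fit. Over all 24 alternatives the value ran from 0.085 to 1.19, and the adjusted p from 0.00288 to 0.999. KEAP1 transcripts have a GC content of 60.3%, higher than in 86.6% of tested genes, and with the GC and length trends removed the value was 0.34 (edgeR unadjusted p = 0.268). The corrected levels were 189.8, 113.0 and 78.1 CPM in controls against 118.6, 185.8 and 176.5 CPM after knockdown, so the groups still overlapped. Leaving out sh-NC 1 as well as the trends, which was added once the data had been seen, gave 0.75 with an edgeR adjusted p of 0.0551.

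BACH1 (ENSG00000156273; chromosome 21, 29194071 to 29630751, plus strand) encodes the repressor that competes with NRF2 at AREs. Controls gave 42.1, 40.9 and 43.2 CPM, and knockdown libraries 1, 2 and 3 gave 24.5, 34.4 and 38.3 CPM. The control libraries were almost level and all knockdown libraries were below them, sh-IGF2BP3 1 by the most. With means of 42.1 ± 1.14 and 32.4 ± 7.14 CPM (SD, n = 3 each), the log2 fold change came to −0.38 (standard error 0.203, edgeR unadjusted p = 0.0831, adjusted p = 0.289). BACH1 has a GC content of 38.6%, near the low end of tested genes. With the trends removed the levels were 42.2, 34.3 and 35.2 CPM against 30.8, 38.6 and 39.7 CPM, which overlap, and the log2 fold change was −0.03.

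**Figure D2:**
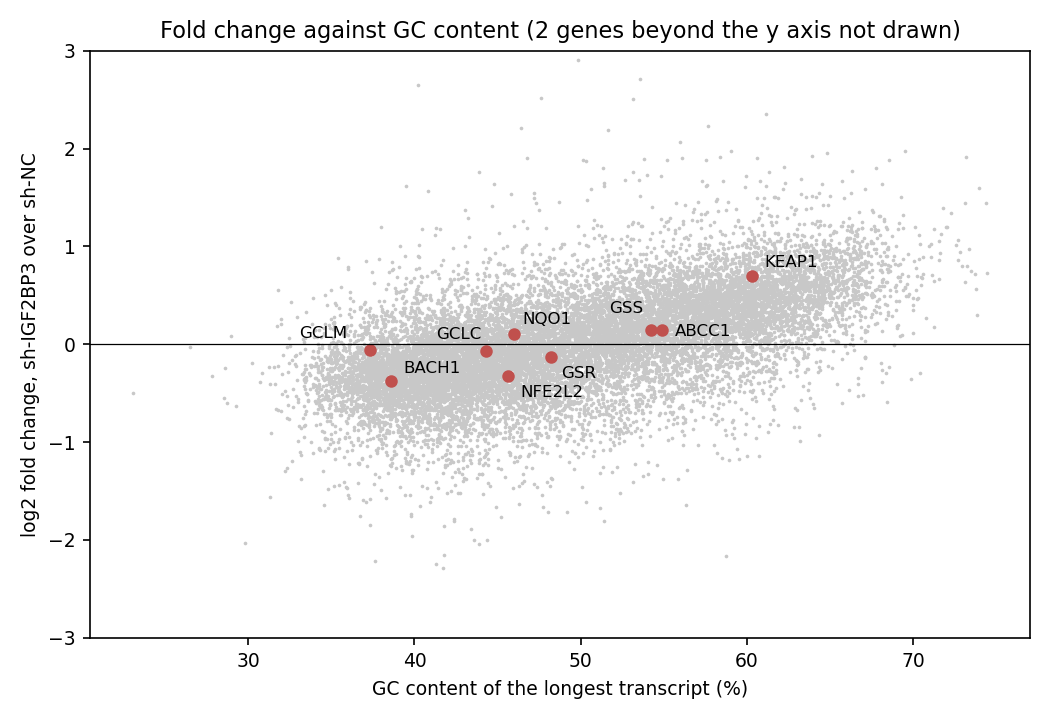
Log2 fold change of sh-IGF2BP3 over sh-NC (y axis) against the GC content of each gene's longest GENCODE 29 transcript in percent (x axis), for tested genes with a known GC content (grey points) and the 9 genes (red). The cloud climbs with GC content (Spearman correlation 0.611 over 16236 genes), with BACH1 and GCLM at its low-GC end and KEAP1, at 60.3%, near the high-GC end.

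The enzymes of glutathione synthesis differed little between the groups. GCLC (ENSG00000001084; chromosome 6, 53497341 to 53616970, minus strand) encodes the catalytic subunit of glutamate-cysteine ligase, which joins glutamate and cysteine in the limiting step. The controls gave 93.1, 101.7 and 93.9 CPM and the knockdown libraries 88.7, 88.4 and 97.6 CPM. All 6 values lay within a narrow band, and the means were 96.2 ± 4.79 and 91.6 ± 5.24 CPM (SD, n = 3 each). Its log2 fold change was −0.07 (standard error 0.172, 95% interval −0.44 to 0.29, edgeR adjusted p = 0.831). With the trends removed the sign turned, to 0.12 (edgeR unadjusted p = 0.410), and the sh-IGF2BP3 libraries then lay wholly higher, at 99.8, 95.3 and 97.9 CPM against 93.9, 92.3 and 84.3 CPM. After that correction GCLC was the only member whose groups did not overlap, 1 of 9 higher against 8.37% of all genes and 0 lower against 6.68%. None of the 9 then had an unadjusted p under 0.05, against 6.78% of all genes higher and 3.65% lower.

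GCLM (ENSG00000023909; chromosome 1, 93885199 to 93909456, minus strand) encodes the modifier subunit, which makes the ligase more efficient. It was found at 65.9, 61.5 and 52.3 CPM in controls and 48.8, 60.2 and 63.3 CPM after knockdown, with much the same range. The means were 59.9 ± 6.93 and 57.4 ± 7.63 CPM (SD, n = 3 each), with a log2 fold change of −0.06 (standard error 0.187, 95% interval −0.46 to 0.34, edgeR adjusted p = 0.868). GCLM had the lowest GC content of the 9 genes, 37.3%, and removing the trends turned the value to 0.27 (edgeR unadjusted p = 0.128). Corrected levels were 65.5, 51.7 and 43.2 CPM in controls against 62.5, 65.9 and 65.3 CPM, where sh-NC 1 again fell among the knockdown libraries.

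GSS (ENSG00000100983; chromosome 20, 34928432 to 34956027, minus strand) encodes glutathione synthetase, which adds glycine. Control values of 63.9, 60.9 and 57.8 CPM faced knockdown values of 73.1, 65.0 and 63.7 CPM. The lowest knockdown library lay just under the highest control. The means of 60.9 ± 3.05 and 67.3 ± 5.12 CPM (SD, n = 3 each) gave a log2 fold change of 0.14 (standard error 0.175, edgeR adjusted p = 0.648), and −0.03 with the trends removed. GSS shares 218 bases with MYH7B on the opposite strand, which had at most 52 counts in any library.

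GSR (ENSG00000104687; chromosome 8, 30678066 to 30727846, minus strand) encodes glutathione reductase, which returns oxidized glutathione to its reduced form with NADPH. Controls were at 277.3, 231.5 and 179.7 CPM and knockdown libraries at 216.6, 179.8 and 231.8 CPM. The spread within sh-NC covered every knockdown value. Its means of 229.5 ± 48.8 and 209.4 ± 26.8 CPM (SD, n = 3 each) gave a log2 fold change of −0.13 (standard error 0.203, edgeR adjusted p = 0.728), and −0.09 with the trends removed.

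The remaining members are a reductase and an exporter. NQO1 (ENSG00000181019; chromosome 16, 69706996 to 69726668, minus strand) encodes a quinone reductase that is among the most used readouts of NRF2 activity. Controls had 225.6, 261.3 and 248.4 CPM and knockdown libraries 289.0, 272.6 and 228.0 CPM. sh-IGF2BP3 1 and 2 lay above the controls and sh-IGF2BP3 3 among them. Averages of 245.1 ± 18.1 and 263.2 ± 31.6 CPM (SD, n = 3 each) corresponded to a log2 fold change of 0.10 (standard error 0.184, 95% interval −0.29 to 0.49, edgeR adjusted p = 0.768) and of 0.20 with the trends removed.

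ABCC1 (ENSG00000103222; chromosome 16, 15949138 to 16143257, plus strand) encodes MRP1, a pump that exports glutathione and its conjugates. Levels were 276.7, 230.3 and 212.6 CPM in controls and 294.9, 235.6 and 265.1 CPM after knockdown, with sh-NC 1 again above 2 of the knockdown libraries. Averages of 239.9 ± 33.1 and 265.2 ± 29.6 CPM (SD, n = 3 each) corresponded to a log2 fold change of 0.14 (standard error 0.189, edgeR adjusted p = 0.674) and of 0.06 with the trends removed.

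For GCLC, GCLM, GSS, GSR, NQO1 and ABCC1, the 95% interval of the fold change in the edgeR fit lay inside 1.5-fold in both directions. The lowest bound was 0.677 for GSR and the highest 1.46 for ABCC1. For NFE2L2 the interval of the ratio ran from 0.581 to 1.10, for BACH1 from 0.571 to 1.04 and for KEAP1 from 1.08 to 2.45, so for these regulators the interval reached past 1.5-fold in 1 direction. Counts of the 9 genes ran from 428 to 6326 per library. Counting error alone was at most 4.83% of a value. The edgeR fit draws the spread of each gene toward that of other genes, so these intervals do not measure a gene's own spread alone. GCLC, with coefficients of variation of 4.98% in sh-NC and 5.72% in sh-IGF2BP3, had a standard error of 0.172. That of GSR was 0.203, with coefficients of 21.3% and 12.8%.

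**Figure D3:**
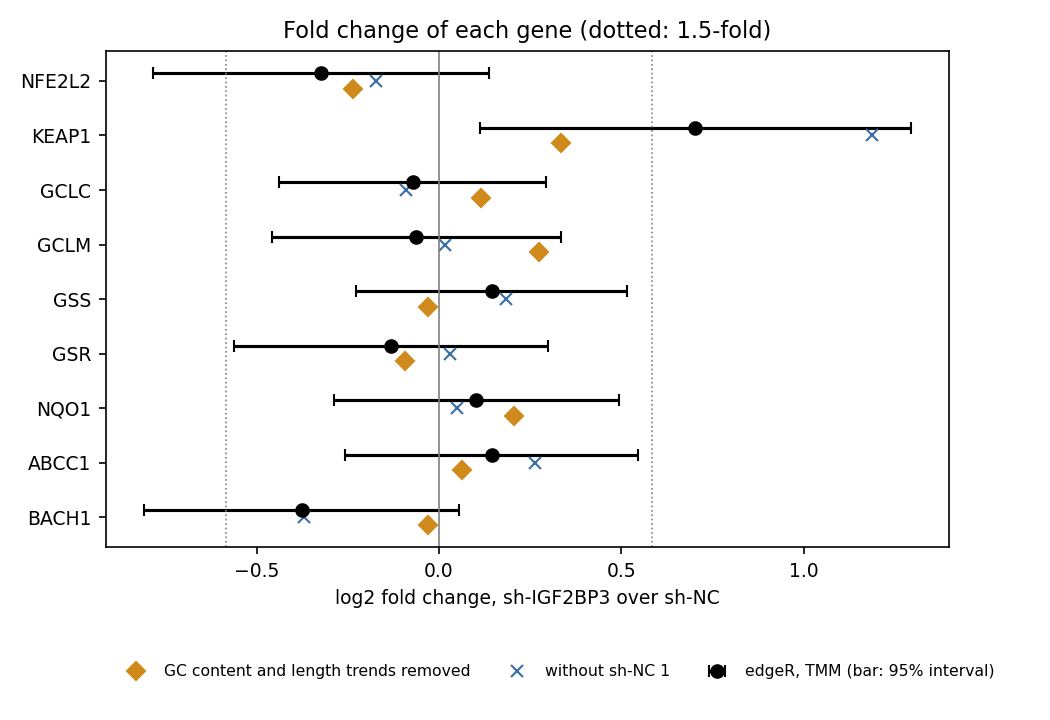
Log2 fold change of sh-IGF2BP3 over sh-NC for the 9 genes, with black points and bars for the edgeR fit and its 95% interval, orange diamonds for the fit with GC content and length trends removed, blue crosses for the fit without sh-NC 1, and dotted lines at 1.5-fold. All intervals but that of KEAP1 cross 0, and KEAP1 moved from 0.70 to 1.19 without sh-NC 1 and to 0.34 with the trends removed.

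Levels were compared between genes per length, on 2 scales. In FPKM, which the authors computed with their own gene lengths, the order of the means over 6 libraries was NQO1 at 85.5, GSR at 60.7, KEAP1 at 40.5 and ABCC1 at 28.8, followed by GCLC at 10.9, GCLM at 10.8, GSS at 10.4, NFE2L2 at 10.2 and BACH1 at 4.86. The ranges over libraries of neighbours in this order overlapped except between ABCC1 and GCLC and between NFE2L2 and BACH1. The reductases NQO1 and GSR thus stood at the top and the repressor BACH1 at the bottom. Per kilobase of the principal transcript, NFE2L2 moved up to 53.7 CPM per kb, behind NQO1 at 87.3 and GSR at 68.8 and beside KEAP1 at 49.8, and its range overlapped those of GSR and KEAP1. On that scale ABCC1 stood at 38.5, GCLC at 24.6, GSS at 23.7, GCLM at 12.1 and BACH1 at 6.45 CPM per kb, with no overlap of neighbours between ABCC1 and GCLC, between GSS and GCLM and between GCLM and BACH1. BACH1 remained the lowest on both scales, and the place of NFE2L2 was set by the length used.

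Ratios within a library compare partners directly. The ratio of GCLC to GCLM in FPKM, catalytic to modifier subunit, was 0.889, 1.04 and 1.13 in controls and 1.15, 0.925 and 0.972 after knockdown. It was centred on the same value in both groups, with a log2 difference of −0.01 (two-sided exact permutation test, p = 1, n = 3 each). The ratio of NFE2L2 to BACH1, activator to competitor, was 2.47, 2.13 and 1.63 in controls and 2.21, 1.92 and 2.32 after knockdown, a log2 difference of 0.07 (exact permutation test, p = 0.8). Although both genes had lower means after knockdown, their ratio overlapped fully between the groups.

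The ratio of NFE2L2 to KEAP1, activator to inhibitor, was 0.276, 0.434 and 0.490 in control libraries 1, 2 and 3, and 0.157, 0.144 and 0.240 in knockdown libraries 1, 2 and 3. Every knockdown library lay below every control library, sh-IGF2BP3 3 and sh-NC 1 being the nearest. Means were 0.400 ± 0.111 and 0.180 ± 0.0523 (SD, n = 3 each), a log2 difference of −1.15 (exact permutation test, two-sided, p = 0.1, below which groups of 3 cannot go, and p = 0.3 after BH adjustment over the 3 ratios). With the GC and length trends removed the difference was −0.64 and the groups still did not overlap, at 0.261, 0.337 and 0.394 against 0.228, 0.172 and 0.236 (exact permutation test, p = 0.1). The levels of this ratio depend on the lengths used, while its difference between groups does not. How often the ratio of other pairs of genes separates the groups was not computed. Of single genes, 13.2% lay wholly higher and 11% wholly lower. NFE2L2 and KEAP1 also differ in GC content, at 45.6% and 60.3%.

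**Figure D4:**
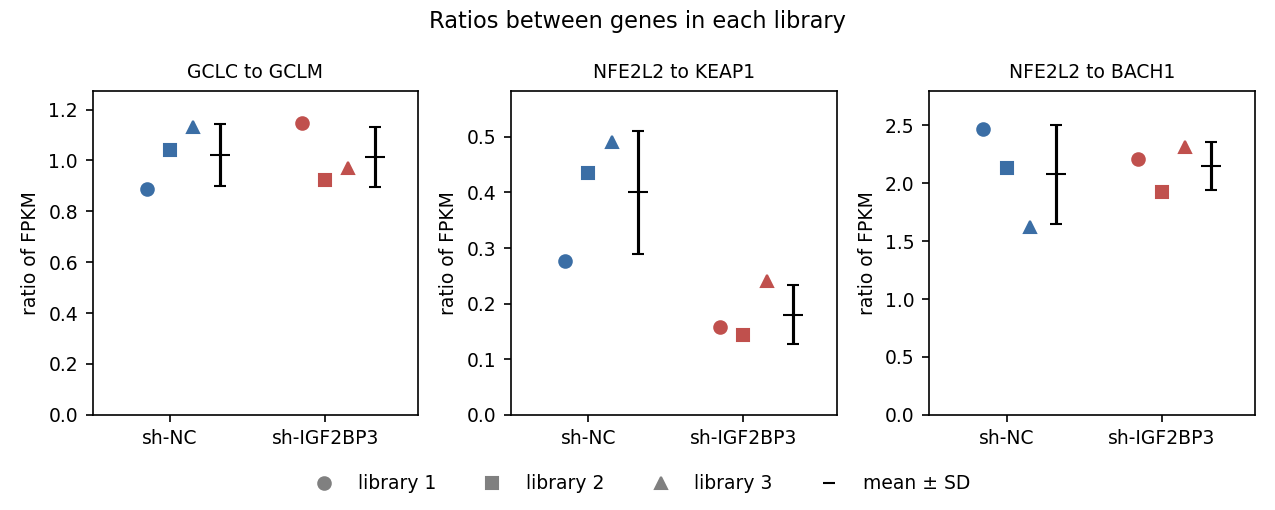
Ratio of FPKM between pairs of genes in each library (linear axes from 0), for GCLC to GCLM, NFE2L2 to KEAP1 and NFE2L2 to BACH1, with 3 sh-NC (blue) and 3 sh-IGF2BP3 (red) libraries and bars for mean ± SD. The groups did not overlap for NFE2L2 to KEAP1, where the highest sh-IGF2BP3 ratio was 0.240 and the lowest sh-NC ratio 0.276, and overlapped for the other pairs.

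Across the 6 libraries, the log2 CPM of NFE2L2 was followed most closely by GCLM among the other members, with a Pearson correlation of 0.883, and next by BACH1 at 0.784. NQO1 went the opposite way at −0.869, and KEAP1 had a correlation of 0.0064 with NFE2L2. Of 9796 genes with a mean of at least 10 CPM, the 5 with the pattern most like NFE2L2 were CLTC (0.9993), KDM6A (0.9989), CDC5L (0.9956), USP7 (0.9948) and KCTD3 (0.9947). These correlations describe 6 points that share library preparation, group and GC trend.

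The promoters were searched for the core of the ARE, TGACNNNGC on either strand, from 250 bases before to 50 after each RefSeq start (GRCh38.p14). Of the 9 genes, NFE2L2, KEAP1, GCLC, GCLM, NQO1 and BACH1 had an entry, and GSS, GSR and ABCC1 were not looked up further. NFE2L2 and KEAP1 had 2 starts each, BACH1 had 3, and GCLC, GCLM and NQO1 had 1 each. The core was present in KEAP1, at 1 of its 2 starts, and at the 1 start of GCLM, against 4687 of all 35116 promoters (13.3%). That share is per promoter and not per gene. AREs outside these windows were not searched for, so a gene without a match here may still have one. It begins like the sites of AP-1, so a match does not tell these factors apart. The windows are shown 5′ to 3′ on the strand of the gene, with the core in capitals, because they let the inhibitor be set beside a subunit of the synthesis enzyme. The first is KEAP1 at chr19:10502807-10502835, 54 bases before the start, the next KEAP1 at chr19:10502784-10502812 with the core on the opposite strand, and the last GCLM at chr1:93909446-93909474 with the core on the opposite strand.
KEAP1, first window: acttttattgTGACACGGCgggcgcccgg
KEAP1, next window: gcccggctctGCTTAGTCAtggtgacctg
GCLM: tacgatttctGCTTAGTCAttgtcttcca
The capitals of the second KEAP1 window and of the GCLM window are the same 9 bases. A match is a description of the sequence and not of binding. KEAP1 and GCLM, which share it, had log2 fold changes of 0.70 and −0.06, and neither was called.

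The wider pathway was followed in 5 lists of genes, whose counts are to be read against those over all tested genes. At an unadjusted p under 0.05 these were 13.6% higher and 8.54% lower, or 6.78% and 3.65% with the trends removed. Over fits that left out 1 library, added after the data were seen, they ran from 7.02% to 17.7% higher and from 3.81% to 14.2% lower, both highest without sh-NC 1, the fit in which 10% of all genes were called higher and 5.67% lower after adjustment. The other NRF2 targets list held 38 genes, of which 29 could be tested, 23 with a positive and 6 with a negative log2 fold change. Its median was 0.21, against −0.01 over all tested genes, and 11 of the 29 were higher and 0 lower at an unadjusted p under 0.05 (13.6% and 8.54% of all genes), with 0 called by edgeR after adjustment and SRXN1 called higher by DESeq2. With the trends removed the median was 0.17, with 5 members higher (SRXN1, FTH1, TXN, PIR and NQO2) and 0 lower. Several classical targets were given few counts: AKR1B10, AKR1C1, AKR1C2 and AKR1C3, reductases of the aldo-keto family, had at most 19, 16, 9 and 26 in any library.

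SRXN1, which encodes sulfiredoxin, the enzyme that restores overoxidized peroxiredoxins, was at 4.46, 2.69 and 2.71 CPM in controls and 31.2, 27.5 and 5.74 CPM after knockdown. All knockdown libraries were above the controls, but sh-IGF2BP3 3 only slightly. The log2 fold change was 2.71 (standard error 0.467, edgeR adjusted p = 0.103), or 2.51 with the trends removed. By the annotated spans, 99.8% of the gene lies inside ENSG00000270299, a coding gene on the same strand with at most 8 counts in any library. How reads in the shared stretch were assigned is not given in the sources used here, so the counts of SRXN1 may be incomplete. HMOX1, which encodes the heme-degrading oxygenase that BACH1 represses, was at 47.6, 20.8 and 14.7 CPM against 37.3, 59.0 and 48.4 CPM, with sh-NC 1 inside the knockdown range, a log2 fold change of 0.80 (edgeR adjusted p = 0.174) that was 0.48 with the trends removed, where the unadjusted p went from 0.0270 to 0.191. FTH1, the ferritin heavy chain that stores iron, was at 488.8, 209.4 and 160.8 CPM against 1480, 1309 and 375.3 CPM, with overlap, and had a log2 fold change of 1.88 (edgeR adjusted p = 0.103), or 1.78 with the trends removed. At an unadjusted p under 0.05, the 11 higher genes of this list became 3 of 31 without sh-NC 3, against 7.58% of all genes. They were 5 of 33 without sh-IGF2BP3 2 (7.53% of all genes), 6 of 30 without sh-NC 2 (7.02%) and 7 of 32 without sh-IGF2BP3 1 (8.74%). The highest counts were 9 of 33 without sh-IGF2BP3 3 (14.3%) and 13 of 32 without sh-NC 1 (17.7%). The background share thus changed between these fits too. In the last of these fits, 8 of 32 tested genes were called higher and 0 lower after adjustment, against 10% and 5.67% of all genes.

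The glutathione use and turnover list held 41 genes, of which 31 were tested, 21 positive and 10 negative, with a median of 0.18. At an unadjusted p under 0.05, 5 were higher (GPX1, GSTO1, GSTP1, GGCT and GLRX5) and 0 lower, close to the 13.6% of all genes that were higher. With the trends removed 9 were higher and 0 lower at a median of 0.14, against 6.78% and 3.65% of all genes. edgeR called 0 and DESeq2 called GPX1. GPX1, a glutathione peroxidase, was at 42.4, 27.9 and 22.0 CPM in controls and at 89.3, 89.2 and 42.6 CPM after knockdown, so the groups nearly touched. Its log2 fold change was 1.26 (standard error 0.284, edgeR adjusted p = 0.103), and 0.63 with the trends removed, where the groups overlapped. By the annotated spans, 99.9% of GPX1 lies inside ENSG00000290318, a coding gene on the same strand with at most 5 counts. As for SRXN1, the assignment of shared reads is not given, so the counts of GPX1 may be incomplete. GSTO1, a glutathione transferase, was at 45.4, 39.0 and 29.5 CPM against 67.9, 76.1 and 45.1 CPM, a log2 fold change of 0.73 that was 0.76 with the trends removed. GSTP1, another transferase, had 0.75, and 0.22 with the trends removed. Leaving out 1 library gave 3 to 8 higher at an unadjusted p under 0.05, with 3 without sh-NC 3 or sh-IGF2BP3 2 and 8 without sh-IGF2BP3 3. In those fits 7.58%, 7.53% and 14.3% of all genes were higher. Without sh-NC 1, edgeR called those same 5 of the 31 genes higher and 0 lower after adjustment, against 10% and 5.67% of all genes.

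The cysteine supply list went the other way in its median. Of its 16 genes 12 were tested, 4 positive and 8 negative, with a median of −0.24, and 0 were higher and 3 lower at an unadjusted p under 0.05, against 13.6% and 8.54% of all genes. The 3 became 1 without sh-NC 3, 2 without sh-IGF2BP3 2 and 4 without sh-IGF2BP3 3. In those fits 3.81%, 3.81% and 10.3% of all genes were lower. With the trends removed the median was −0.15, with MAT2B higher and the same 3 lower. SLC7A11, the cystine importer on which the study centres, averaged 203.9 ± 27.9 CPM in controls and 102.3 ± 3.15 CPM after knockdown (SD, n = 3 each; edgeR adjusted p = 0.103), and DESeq2 called it lower. Its log2 fold change of −0.996 was −0.51 with the trends removed, still without overlap (edgeR unadjusted p = 0.0126). The paper reports differentially expressed genes from its RNA sequencing, and reached SLC7A11 by joining them with binding data and ferroptosis genes. It also reports lower SLC7A11 mRNA and protein after knockdown in HCT116 and DLD-1 cells, and lower staining in xenografts. CTH, which makes cysteine from cystathionine, was at 17.0, 17.0 and 21.0 CPM against 11.4, 12.2 and 13.3 CPM, without overlap, a log2 fold change of −0.58 (standard error 0.224, edgeR adjusted p = 0.159), or −0.45 with the trends removed. SLC1A1, a glutamate and cysteine transporter, had −0.87 with overlap, or −0.65 with the trends removed. CBS, the enzyme before CTH in the same route, was given at most 3 counts in any library. How reads that match several genes were counted is not given in the sources used here. The low count of CBS therefore does not show that it was not expressed. Without sh-NC 1, 0 of the 12 were called higher and SLC7A11 and SLC1A1 lower, against 10% and 5.67% of all genes.

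The list of NRF2 partners and regulators had 27 genes, all tested, 15 positive and 12 negative, with a median of 0.15 (0.11 with the trends removed). At an unadjusted p under 0.05, 5 were higher (MAFK, RBX1, SQSTM1, MAFF and DPP3) and 0 lower, against 13.6% and 8.54% of all genes, and 0 were called by edgeR or DESeq2. RBX1 was left with the trends removed, 1 of 27 against 6.78%. The 5 became 2 without sh-NC 2 or sh-IGF2BP3 2, 3 without sh-NC 3 and 10 without sh-NC 1. In those fits 7.02%, 7.53%, 7.58% and 17.7% of all genes were higher. MAFK, a small MAF partner of NRF2 and BACH1, was at 42.0, 16.9 and 17.0 CPM in controls and 43.3, 68.9 and 40.0 CPM after knockdown, a log2 fold change of 1.01 (edgeR adjusted p = 0.120) that was 0.56 with the trends removed, with sh-NC 1 inside the knockdown range as for KEAP1. RBX1, the RING subunit of the ligase that KEAP1 feeds, was at 24.9, 22.7 and 19.7 CPM against 34.2, 46.4 and 27.7 CPM, without overlap, and had 0.69, or 0.81 with the trends removed. SQSTM1 encodes p62, which draws KEAP1 into autophagy. It was at 286.9, 194.3 and 185.2 CPM against 344.4, 343.3 and 314.1 CPM, without overlap, a log2 fold change of 0.59. With the trends removed the log2 fold change of SQSTM1 was 0.28 and its groups overlapped. Without sh-NC 1, 8 of the 27 were called higher and BACH2 lower, against 10% and 5.67% of all genes.

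Among the 11 genes for glutathione and conjugate transport, all tested, 5 were positive and 6 negative, with a median of −0.17 that was 0.007 with the trends removed. The median was also positive without sh-NC 1 (0.03), sh-NC 3 (0.12) or sh-IGF2BP3 1 (0.0008). At an unadjusted p under 0.05, 2 of the 11 were higher and 0 lower, against 13.6% and 8.54% of all genes, and 0 in either direction with the trends removed. Without sh-NC 2, sh-NC 3, sh-IGF2BP3 1 or sh-IGF2BP3 2, 0 were higher, against 7.02% to 8.74% of all genes. The 2 were the mitochondrial carriers SLC25A10 and SLC25A11, with log2 fold changes of 0.87 and 0.45, or 0.25 and 0.04 with the trends removed. edgeR and DESeq2 called 0 of them, and without sh-NC 1 SLC25A10 was called higher and 0 were lower, against 10% and 5.67% of all genes. The 9 genes described here had 4 positive and 5 negative values and a median of −0.06, against −0.01 over all tested genes, and 0.06 against 0.01 with the trends removed.

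**Figure D5:**
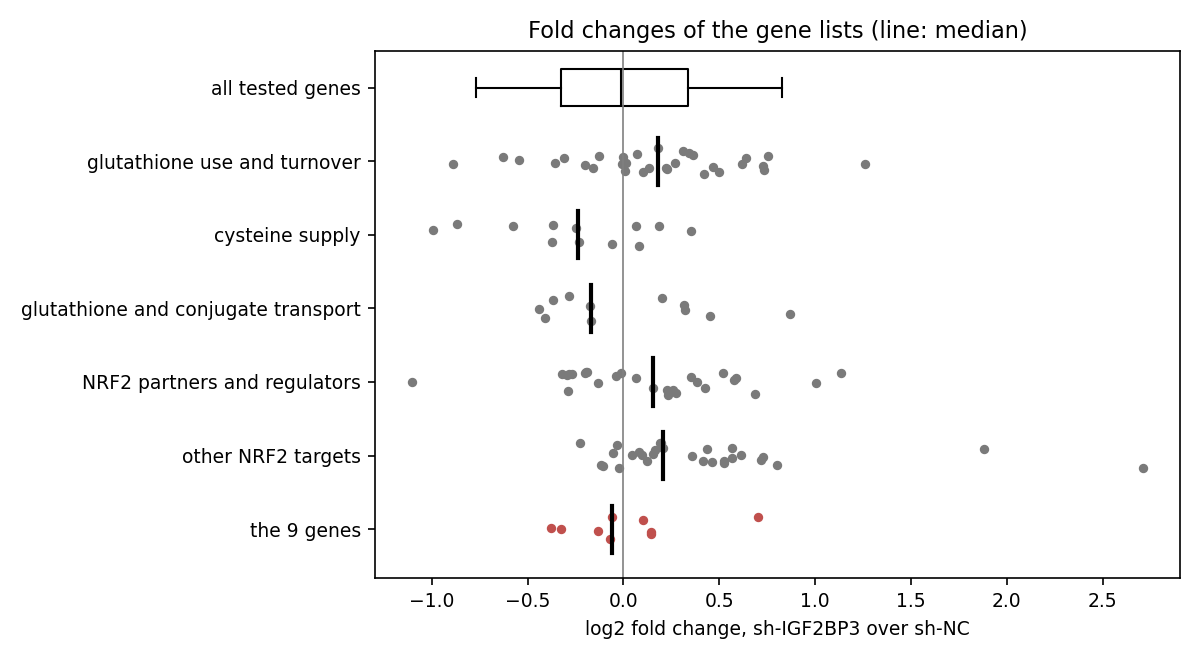
Log2 fold change of sh-IGF2BP3 over sh-NC for each tested gene of the 5 lists (grey) and for the 9 genes (red), with a vertical line for the median of each, above them a box for all tested genes (box from the lower to the upper quartile, whiskers from the 5th to the 95th percentile). The medians were −0.24 for cysteine supply and 0.21 for other NRF2 targets, and most points of every list lie within the whiskers of all genes.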

How the data were processed

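The 6 RNA libraries were labelled by the submitters as sh-NC or sh-IGF2BP3. The authors deposited raw counts per gene and an FPKM table on GRCh38. CASAVA is named in the submitters' processing notes. The aligner, counter and use of strand are not given in the sources used here. Each deposited FPKM value equals the count over the library total and a gene length that was the same in every library.

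The count test was edgeR 4.0.16 in R 4.3.3 (filterByExpr, TMM, glmQLFit, glmQLFTest, two-sided), beside limma 3.58.1 and DESeq2 1.42.0. CPM is TMM-scaled. Thresholds (adjusted p of 0.05, fold change of 1.5) follow the study's methods. GC and length trends of GENCODE 29 transcripts were removed from each library as splines with 5 degrees of freedom. Ratios were tested by exact permutation over 20 splits. P-values cover the spread between these libraries, which may be technical. The steps were tested on simulated data.

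The 9 genes and 5 lists were chosen with earlier results of these data known. Besides the 9 genes, IGF2BP3, SLC7A11, SRXN1 and HMOX1, the rule named up to 3 genes per list and direction with the smallest unadjusted p under 0.05, and the 5 genes most like NFE2L2. A gene that the rule named is not reported here. Other genes, such as CBS, BACH2, MAT2B and the AKR1 family, were named after their values were seen. The counts of calls and the log2 fold changes of the 9 genes, IGF2BP3 and SLC7A11 were also computed with DESeq2, upper-quartile and RLE scaling, other filters, the replicate number as a block, limma on log2 FPKM, removal of the trends, and each library left out. The trends removed with a library left out were added after seeing the data. Ratios and overlaps were recomputed with the trends removed and with each library left out, ratios also with the block and a pseudocount of 1. Lists were recomputed with the trends removed and, added after seeing the data, with DESeq2 and each library left out. Other genes have the trends removed as their alternative.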

Additional observations from a re-analysis of the deposited data

How the results depend on the processing

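The limits are these. With 3 libraries a group, exact tests cannot go below p = 0.1, sh-NC 1 lay apart from sh-NC 2 and 3 for several genes, and fold changes followed GC content. Where a value changed, the cause was not tested.

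The count of 0 genes called higher and 0 lower among all tested genes became 562 and 137 with DESeq2, 687 and 150 with no filter on low counts, 1 higher under RLE scaling or a minimum of 10 counts per library, and 1 lower with limma on log2(FPKM + 1). Over left-out libraries the numbers higher ran from 0 to 1739 and the numbers lower from 0 to 985, the upper ends without sh-NC 1, and they were 214 and 14 when sh-IGF2BP3 3 was dropped. With the GC and length trends removed as well, a setting added after seeing the data, the ranges were 0 to 682 and 0 to 161 (682 and 161 without sh-NC 1, then 3 and 0 when sh-IGF2BP3 3 was dropped).

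Of the 9 genes, 0 were called under any setting except without sh-NC 1, where 1 was higher (KEAP1, 1.19), so the range over left-out libraries was 0 to 1. At an unadjusted p under 0.05, the 1 higher gene became 0 with limma on log2(FPKM + 1) and no filter, and with the GC trend, the GC and length trends, or those trends and the block. Leaving out libraries gave 0 to 1 higher and 0 to 2 lower, against 7.02% to 17.7% and 3.81% to 14.2% of all genes. With the trends removed as well, 0 to 2 were higher (2 without sh-NC 1), and the share over all genes is not given for that setting. The 0 lower genes became 1 with upper-quartile normalization and with limma on FPKM at each pseudocount and with no filter. Groups did not overlap for 1 gene higher and 0 lower with the trends removed, against 8.37% and 6.68% of all genes. Over left-out libraries this held for 0 to 3 genes higher and 1 to 3 lower. The share over all genes is not given there, and smaller groups separate more easily, so these counts cannot be read as a result about the 9 genes.

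The signs of NFE2L2, KEAP1 and NQO1 held in all 24 alternatives. With the GC trend, the GC and length trends, or those and the block, GCLC turned to 0.116, 0.115 and 0.117, GCLM to 0.259, 0.274 and 0.294, and GSS to −0.0063, −0.0305 and −0.0296. ABCC1 turned to −0.035 with the GC trend removed. With all libraries the values had been −0.07, −0.06, 0.14 and 0.14. Leaving out 1 library, GCLM ran from −0.171 to 0.046 and GSR from −0.303 to 0.031, with GCLM at 0.017 without sh-NC 1.

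With the trends removed and 1 library left out, GCLC was 0.160, 0.139, 0.071, 0.112, 0.143 and 0.127 without sh-NC 1, 2 and 3 and sh-IGF2BP3 1, 2 and 3 in turn, and GCLM was 0.461, 0.254, 0.141, 0.308, 0.267 and 0.274. GSS was −0.0072, −0.0698, −0.0260, −0.0076 and −0.0341 without sh-NC 2 and 3 and sh-IGF2BP3 1, 2 and 3 in turn. GSR turned to 0.116 without sh-NC 1 and 0.0055 without sh-IGF2BP3 2, ABCC1 to −0.057 without sh-NC 3, and BACH1 to 0.0795 and 0.0827 when sh-NC 1 or sh-IGF2BP3 1 was dropped.

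The GCLC to GCLM log2 ratio ran from −0.104 to 0.069 over left-out libraries. The NFE2L2 to BACH1 ratio ran from −0.100 to 0.203 and was −0.196 with the trends removed. The NFE2L2 to KEAP1 ratio ran from −1.39 to −0.98.

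The study's design speaks of pairs, but same-numbered libraries did not deviate together (correlations of −0.284, −0.186 and −0.043, while sh-NC 1 correlated best with sh-IGF2BP3 2 at 0.323). With the replicate number as a block, 0 genes were called in either direction, KEAP1 had 0.82, and no call changed. The paired exact test of NFE2L2 to KEAP1 gave p = 0.25, the smallest it allows.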
